A study of Mus musculus with 4 samples.

Results

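The genes described here are 31 mouse genes of cholesterol synthesis, uptake and storage, measured in induced hepatocyte-like (iHep) cells. They were given as a named list of pathway members and were found on the arrays by the gene name of each probe, with the older names of Msmo1 (Sc4mol) and Sc5d (Sc5dl) accepted. All 31 of 31 genes had a probe and passed the filter on dim probes, and they are 31 of 16458 genes tested. They were covered by 59 of 41174 probes, of which 57 passed that filter (a signal well above background on 2 or more of the 4 arrays). All 31 genes were well above background on all 4 arrays at the probe used for the gene.

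iHep cells are cells turned towards a hepatocyte fate in culture. Per the labels they were of the C57BL/6 strain and were derived from cells named MDFs, an abbreviation that the labels do not expand. The comparison was between 3D culture and 2D culture, and the cells came from 2 independent experiments, named iHep-1 and iHep-2. Each experiment gave 1 array of 3D and 1 array of 2D cells, so there were 4 samples in all: 3D iHep-2, 3D iHep-1, 2D iHep-2 and 2D iHep-1. The titles of both 2D samples carry a plus sign that the titles of the 3D samples lack, and what it marks cannot be told apart from culture. The promoters or vectors of the reprogramming factors, the culture medium and its serum or lipid content are not given in the sources used here.

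Cholesterol is made from acetyl-CoA through mevalonate, farnesyl diphosphate and squalene, and the first ring-shaped sterol, lanosterol, is then demethylated and rearranged in the endoplasmic reticulum. Hepatocytes make much of the body's cholesterol, take more up from lipoproteins, store the excess as esters and turn part of it into bile acids. The genes of the pathway are known to share a control: when sterols in the endoplasmic reticulum are low, SCAP carries the transcription factor SREBP2 to the Golgi for cleavage, and the released fragment binds sterol regulatory elements near those genes; when sterols are high, INSIG proteins hold SCAP back.

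The promoters shown are those of 2 synthesis enzymes, of the sterol sensor Insig1 and of Npc2, whose values ran against those of the enzymes. They are the RefSeq entries of build GRCm38.p6, each 300 bases long, 5′ to 3′ on the strand of the gene, from 250 bases before the start to 50 after it. Capitals mark matches to the motifs searched on both strands, with overlaps counted: the sterol regulatory element TCACNCCAC, the NF-Y box CCAAT and the GC box GGGCGG.
Hmgcs1 (chr13:119690101-119690400, plus strand): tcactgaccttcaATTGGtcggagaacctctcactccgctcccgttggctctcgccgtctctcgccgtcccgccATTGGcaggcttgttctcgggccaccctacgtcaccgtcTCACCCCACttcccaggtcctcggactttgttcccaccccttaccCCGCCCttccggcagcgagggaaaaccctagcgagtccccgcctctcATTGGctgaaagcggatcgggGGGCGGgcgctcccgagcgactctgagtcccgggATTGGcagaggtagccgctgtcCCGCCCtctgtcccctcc
Cyp51 (chr5:4104648-4104947, minus strand): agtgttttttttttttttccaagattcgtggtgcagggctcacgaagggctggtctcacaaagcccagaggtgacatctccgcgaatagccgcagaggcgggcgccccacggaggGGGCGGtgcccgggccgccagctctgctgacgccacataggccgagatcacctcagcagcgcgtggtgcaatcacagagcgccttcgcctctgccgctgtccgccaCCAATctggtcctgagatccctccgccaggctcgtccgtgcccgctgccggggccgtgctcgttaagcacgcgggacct
Insig1 (chr5:28071162-28071461, plus strand): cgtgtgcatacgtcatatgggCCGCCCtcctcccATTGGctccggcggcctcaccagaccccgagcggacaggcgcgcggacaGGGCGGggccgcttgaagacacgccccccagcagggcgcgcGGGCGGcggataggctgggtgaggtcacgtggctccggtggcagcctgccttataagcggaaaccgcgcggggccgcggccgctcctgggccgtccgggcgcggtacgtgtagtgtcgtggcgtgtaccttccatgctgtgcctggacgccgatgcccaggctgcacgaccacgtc
Npc2 (chr12:84773063-84773362, minus strand): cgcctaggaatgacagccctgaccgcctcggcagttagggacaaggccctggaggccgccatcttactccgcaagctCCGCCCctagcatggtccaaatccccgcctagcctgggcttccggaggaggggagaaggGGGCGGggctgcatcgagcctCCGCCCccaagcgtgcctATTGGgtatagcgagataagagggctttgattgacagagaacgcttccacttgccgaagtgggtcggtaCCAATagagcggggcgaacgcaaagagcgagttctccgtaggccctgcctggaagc
The Hmgcs1 promoter held the letters TCACCCCAC, with the first base at -137 relative to the start, together with 4 NF-Y boxes and 3 GC boxes. The promoter of Insig1 held 1 NF-Y box and 3 GC boxes, that of Cyp51 1 NF-Y box and 1 GC box, and that of Npc2 2 NF-Y boxes and 3 GC boxes. Promoter entries were found for 23 of the 31 genes, with 29 promoters in all, and those not matched were Acat1, Fdft1, Fdps, Npc1, Scarb1, Soat2, Sqle and Stard4. A sterol regulatory element was in 1 of the 29 promoters (3.45%), against 1.24% of 32851 promoters of the same length. An NF-Y box was in 21 (72.4%, against 37.4%), a GC box in 24 (82.8%, against 35.7%) and both together in 18 (62.1%, against 12.8%). These are matches of letters in a 300-base window, and no binding was measured.

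The signals below are read from 60-base probes, and 7 of them are printed because the main values rest on them. Positions are those of build mm9 in the file headers, and no mm9 annotation was at hand to place a probe in an exon or a UTR.
Acat2 (chr17:13136497-13136556, minus strand): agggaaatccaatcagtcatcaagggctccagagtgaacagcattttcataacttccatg
Hmgcs1 (chr13_random:114807-114866, minus strand): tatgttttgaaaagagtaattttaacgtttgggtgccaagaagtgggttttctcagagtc
Pmvk (chr3:89272739-89272798, plus strand): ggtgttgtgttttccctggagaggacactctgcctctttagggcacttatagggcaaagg
Insig1 (chr5:28404246-28404305, plus strand): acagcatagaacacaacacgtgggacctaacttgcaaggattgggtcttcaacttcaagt
Srebf2 (chr15:82035695-82035754, plus strand): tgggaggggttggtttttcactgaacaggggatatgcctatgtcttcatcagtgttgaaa
Npc2 (chr12:86097947-86098006, minus strand): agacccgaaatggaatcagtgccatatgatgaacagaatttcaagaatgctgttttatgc
Soat1 (chr1:158359977-158360036, minus strand): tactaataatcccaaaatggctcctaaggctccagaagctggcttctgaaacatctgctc
The Hmgcs1 probe lies on unplaced sequence of chromosome 13 in that build.

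Each array gave 1 intensity per spot on a linear scale. For the processed signal the 75th percentile came to 399 in 3D iHep-2, 594 in 3D iHep-1, 616 in 2D iHep-2 and 523 in 2D iHep-1, and 23070 to 24420 of the 41174 probes were well above background. Levels are given as log2 of the processed signal minus log2 of that percentile on the same array, so a level of 0 is the array's 75th percentile and 1 unit is a doubling. Levels of different genes come from different probes and are not set against each other. The number of arrays limits the precision: each culture has 2 arrays, and each culture of each experiment has 1. In cultures of many cells, fewer cells of a type and less RNA per cell cannot be told apart.

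The synthesis enzymes had their lowest level in 2D cells of iHep-2. All 19 enzymes of the list, and all 36 of their probes that passed the filter, were lowest on that array. The Fdft1 probe not used for the gene was not well above background there. It passed on the other 3 arrays alone, so the filter itself favoured that order. In iHep-2 all 19 enzymes were higher in 3D than in 2D, with a median difference of 1.56 log2 units, whereas in iHep-1 5 were higher and 14 lower, with a median of -0.30. Over all members the lowest of the 4 levels was that of 2D iHep-2 in 25 of 31 genes, against 30.1% of all genes tested. With arrays scaled to 6 spike-in probes instead, all genes move together, and the all-gene median of 3D minus 2D was -0.49 in iHep-2 and -1.69 in iHep-1. The lowest level was then that of 2D iHep-2 in 8 of 19 enzymes, against 7.27% of all genes. In that scaling 3D was above 2D in 18 of 19 enzymes for iHep-2 and in none for iHep-1.

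**Figure D1:**
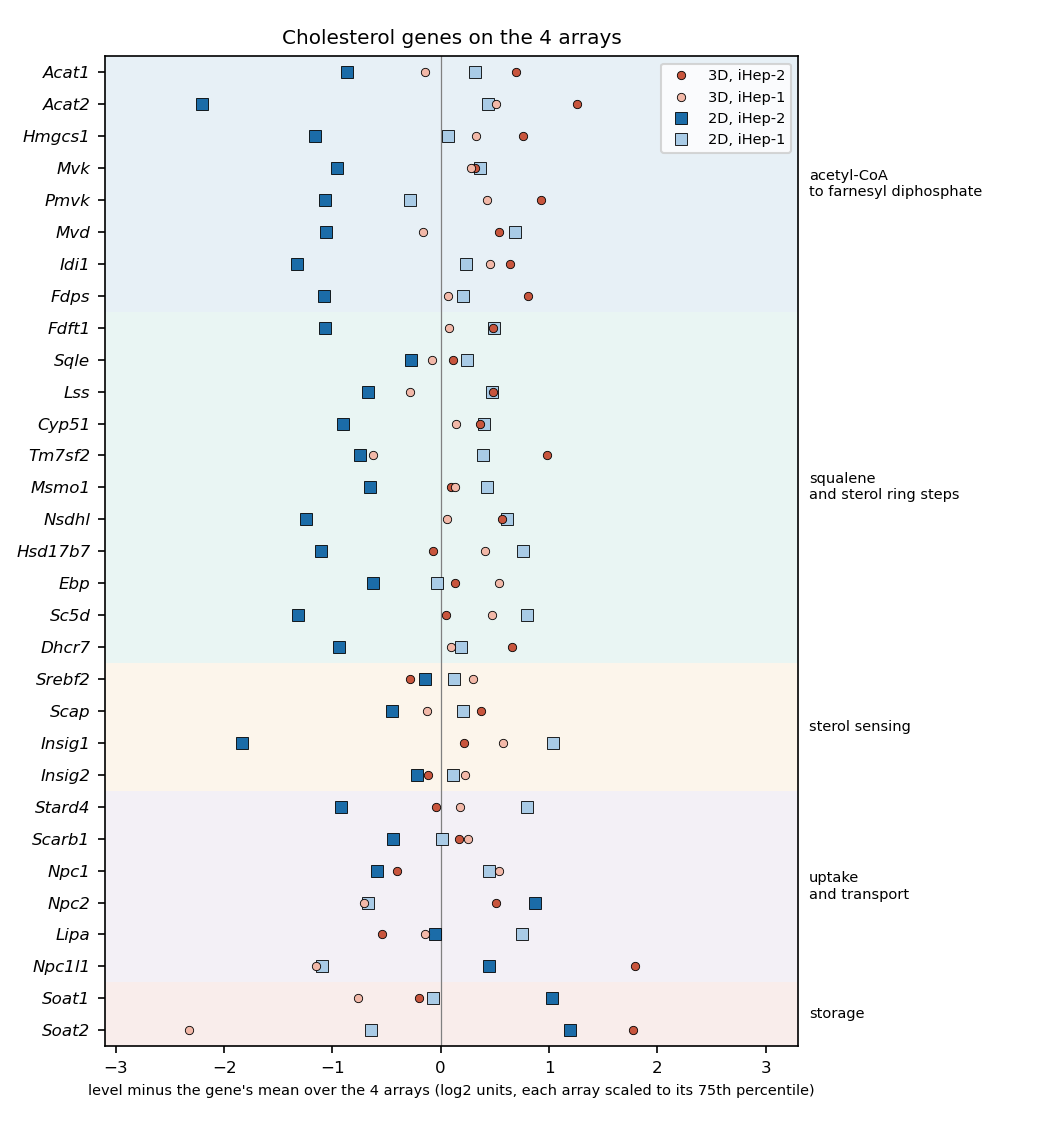
Level of each gene on the 4 arrays, as the log2 difference from the gene's own mean over the arrays; circles are 3D and squares 2D, dark symbols iHep-2 and light symbols iHep-1, with 1 array per symbol. The dark blue squares of 2D iHep-2 are leftmost in all 19 enzymes in the upper 2 bands (in 8 of 19 with spike-in scaling), and the order differs in the storage and transport genes below.

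Of the enzymes from acetyl-CoA to farnesyl diphosphate, Acat2 had the widest culture difference in iHep-2, 3.46 log2 units. Acat2, the cytosolic thiolase that joins acetyl-CoA units at the start of the pathway, had levels of 2.45 in 3D iHep-2 and 1.70 in 3D iHep-1, against -1.01 in 2D iHep-2 and 1.63 in 2D iHep-1. Its unscaled signal was 2180 and 1935 in 3D of iHep-2 and iHep-1, against 307 and 1615 in 2D of iHep-2 and iHep-1. The other 3 arrays thus lay close together and 2D iHep-2 lay far below them. Acat1, the mitochondrial thiolase, had levels of 3.35 in 3D iHep-2 and 2.51 in 3D iHep-1, against 1.79 in 2D iHep-2 and 2.97 in 2D iHep-1, so its 2 cultures overlapped.

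Hmgcs1, the cytosolic synthase that makes HMG-CoA, had levels of 6.05 in 3D iHep-2 and 5.61 in 3D iHep-1, against 4.13 in 2D iHep-2 and 5.36 in 2D iHep-1. Its unscaled signal in 2D iHep-2, 10784, compared with 21426 in 2D iHep-1, and the signals in 3D were 26369 in iHep-2 and 29085 in iHep-1. Both 3D arrays were above both 2D arrays, with averages of 5.83 ± 0.31 in 3D and 4.74 ± 0.87 in 2D (SD, n = 2 each). The difference of 1.09 ± 0.53 (SE) did not pass the test (limma, adjusted p = 0.699). In iHep-2 it was 1.92 and in iHep-1 0.26.

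Mevalonate is phosphorylated by Mvk and Pmvk and decarboxylated by Mvd. For Mvk the levels were 1.01 in 3D iHep-2 and 0.97 in 3D iHep-1, against -0.27 in 2D iHep-2 and 1.06 in 2D iHep-1, which again sets 1 array apart from the other 3. Pmvk had levels of 4.44 in 3D iHep-2 and 3.94 in 3D iHep-1, against 2.45 in 2D iHep-2 and 3.24 in 2D iHep-1. It was the gene whose cultures were furthest apart relative to their spread: the difference was 1.99 in iHep-2 and 0.70 in iHep-1, the mean 1.35 ± 0.40 (SE), and p was 0.034 before adjustment and 0.683 after it in limma. Mvd had levels of 2.64 in 3D iHep-2 and 1.93 in 3D iHep-1, against 1.03 in 2D iHep-2 and 2.78 in 2D iHep-1, and its highest array was therefore a 2D one.

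Idi1, the isomerase that makes dimethylallyl diphosphate, had levels of 5.10 in 3D iHep-2 and 4.92 in 3D iHep-1, against 3.14 in 2D iHep-2 and 4.70 in 2D iHep-1. The array design places both Idi1 probes on chromosome 2 and gives them a transcript that is not in the RefSeq table, whereas RefSeq puts Idi1 on chromosome 13, so these values may belong to another transcript. Fdps, which makes farnesyl diphosphate, had levels of 5.25 in 3D iHep-2 and 4.51 in 3D iHep-1, against 3.37 in 2D iHep-2 and 4.66 in 2D iHep-1. In iHep-2 all 8 genes of this stretch were at least 2-fold higher in 3D than in 2D, and in iHep-1 4 were higher and 4 lower, with none 2-fold apart. The medians of the 8 were 1.90 log2 units in iHep-2 and -0.01 in iHep-1.

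The steps from farnesyl diphosphate to squalene and through the sterol ring comprised 11 genes. All 11 were higher in 3D than in 2D in iHep-2, 8 of them at least 2-fold, and in iHep-1 10 of the 11 were lower in 3D. The medians were 1.27 in iHep-2 and -0.33 in iHep-1.

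Fdft1, squalene synthase, had levels of 3.93 in 3D iHep-2 and 3.52 in 3D iHep-1, against 2.37 in 2D iHep-2 and 3.94 in 2D iHep-1. Sqle, the epoxidase that is a slow step of the pathway, was the enzyme with the smallest gap in iHep-2: its levels were 4.28 in 3D iHep-2 and 4.08 in 3D iHep-1, against 3.89 in 2D iHep-2 and 4.41 in 2D iHep-1. By unscaled signal Sqle was the exception among the 19 enzymes, with 7728 in 3D iHep-2 and 10078 in 3D iHep-1, against 9153 in 2D iHep-2 and 11157 in 2D iHep-1. Its place in the order of the arrays thus rested on the scaling. Lss, which closes the ring to lanosterol, had levels of 3.26 in 3D iHep-2 and 2.50 in 3D iHep-1, against 2.11 in 2D iHep-2 and 3.26 in 2D iHep-1.

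Cyp51, the lanosterol demethylase, had levels of 2.25 in 3D iHep-2 and 2.03 in 3D iHep-1, against 0.98 in 2D iHep-2 and 2.28 in 2D iHep-1. Tm7sf2, a sterol reductase of the next step, was the enzyme whose 3D arrays lay furthest apart, with 4.33 in 3D iHep-2 and 2.72 in 3D iHep-1, against 2.61 in 2D iHep-2 and 3.74 in 2D iHep-1. Its culture difference was 1.72 in iHep-2 and -1.02 in iHep-1, the one enzyme at least 2-fold lower in 3D in iHep-1. Msmo1, the oxidase that begins the removal of the methyl groups at carbon C4, had levels of 6.16 in 3D iHep-2 and 6.20 in 3D iHep-1, against 5.41 in 2D iHep-2 and 6.50 in 2D iHep-1.

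Nsdhl, the dehydrogenase of the same demethylation, had levels of 1.84 in 3D iHep-2 and 1.33 in 3D iHep-1, against 0.02 in 2D iHep-2 and 1.89 in 2D iHep-1. Hsd17b7, the ketone reductase of that demethylation, had levels of 1.0 in 3D iHep-2 and 1.48 in 3D iHep-1, against -0.04 in 2D iHep-2 and 1.83 in 2D iHep-1. For both genes the 2D arrays bracketed the 3D arrays, with 2D iHep-1 on top and 2D iHep-2 at the bottom. Sc5d, the desaturase of the last steps, showed the same bracket, with 5.61 in 3D iHep-2 and 6.05 in 3D iHep-1, against 4.25 in 2D iHep-2 and 6.37 in 2D iHep-1.

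Ebp, the sterol isomerase, was the enzyme with the most even culture difference, 0.76 in iHep-2 and 0.57 in iHep-1. Its levels were 7.17 in 3D iHep-2 and 7.58 in 3D iHep-1, against 6.42 in 2D iHep-2 and 7.01 in 2D iHep-1, and the mean difference of 0.67 ± 0.34 (SE) did not pass the test (limma, adjusted p = 0.704). Dhcr7, the reductase that yields cholesterol, had levels of 4.49 in 3D iHep-2 and 3.92 in 3D iHep-1, against 2.88 in 2D iHep-2 and 4.01 in 2D iHep-1. The other 3 arrays of Dhcr7 lay within 0.56 log2 units of each other.

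The synthesis enzymes differed between the experiments in 2D culture in one direction, and less so in 3D with this scaling. In 2D the level of all 19 enzymes was lower in iHep-2: iHep-2 minus iHep-1 ran from -2.63 to -0.52 log2 units with a median of -1.29, and 16 enzymes were at least 2-fold lower. In 3D the same 19 differed by -0.48 to 1.61 log2 units between iHep-2 and iHep-1, with a median of 0.43. Over all 31 members, iHep-2 was lower than iHep-1 in 27 genes in 2D (53.8% of all genes tested) and in 11 genes in 3D (49.8% of all genes tested). It was at least 2-fold lower in 2D in 19 members, against 10.1% of all genes, and the members' medians were -1.13 in 2D and 0.41 in 3D, against -0.05 in 2D and 0.00 in 3D over all genes. The absolute gap between iHep-2 and iHep-1 was smaller in 3D than in 2D in 18 of 19 enzymes and 26 of 31 members, against 47.5% of all genes. With spike-in scaling all 19 enzymes were still lower in iHep-2 in 2D, and all 19 were higher in iHep-2 in 3D. Their medians were -1.75 in 2D and 1.11 in 3D, against all-gene medians of -0.51 in 2D and 0.68 in 3D. The size of the gap in 3D thus depended on the scaling. Each of these differences compares 1 array with 1 array and has no test.

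**Figure D2:**
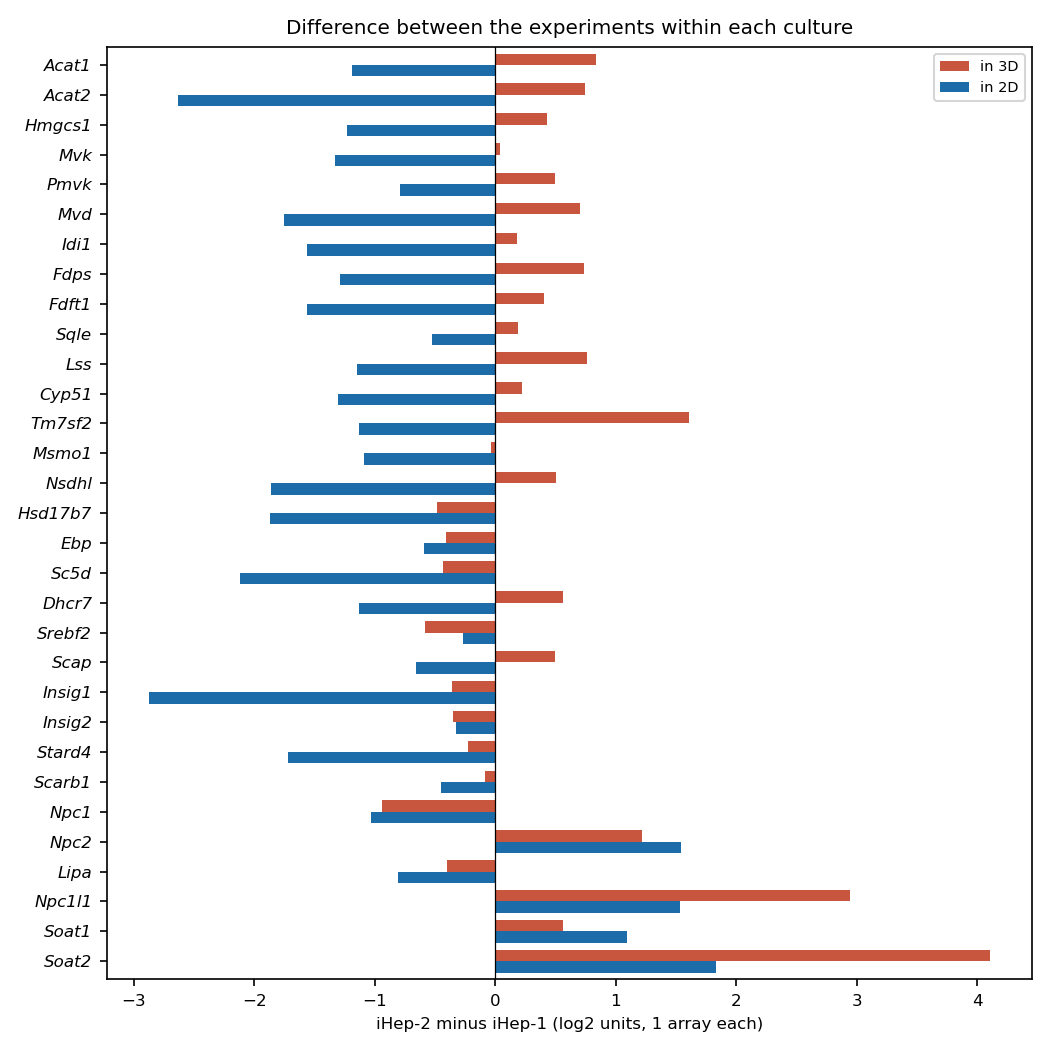
Difference between experiments, iHep-2 minus iHep-1 in log2 units, within 3D (red bars) and within 2D (blue bars) for each of the 31 genes, with 1 array per experiment and culture. The blue bars of 27 genes point left, those of all 19 enzymes and of Insig1 among them, and those of Npc2, Npc1l1, Soat1 and Soat2 point right.

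The low level of 2D iHep-2 was also there before scaling. By processed signal, 18 of 19 enzymes and 21 of 31 members were lowest in 2D iHep-2, against 12.1% of all genes, although that array had the highest 75th percentile of the 4. Dhcr7 had signals of 8935 in 3D iHep-2 and 9028 in 3D iHep-1, against 4546 in 2D iHep-2 and 8455 in 2D iHep-1. For Nsdhl they were 1426 in 3D iHep-2 and 1495 in 3D iHep-1, against 626 in 2D iHep-2 and 1934 in 2D iHep-1. In both genes the signal of 2D iHep-2 was the one that stood apart.

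Separate probes of an enzyme had the same sign in each experiment. Of 31 members, 17 had several probes that passed the filter, and the gap between the culture differences of iHep-2 and iHep-1 ranged over a median of 0.29 log2 units among the probes of a gene, and over 1.04 in Sc5d, where it was widest. All 36 enzyme probes were higher in 3D than in 2D in iHep-2, and 9 of the 36 were higher in 3D in iHep-1. For the Fdft1 probe not used for the gene, the signal in 2D iHep-2 was not well above background. The 3 probes of Hmgcs1 had culture differences of 1.92, 1.81 and 1.70 in iHep-2 and of 0.26, 0.10 and 0.46 in iHep-1. The 2 probes of Insig1 had 2.05 and 2.43 in iHep-2 and -0.46 and -0.08 in iHep-1. Outside the enzymes signs differed among the probes of Srebf2 in both experiments, and among those of Insig2 and Stard4 in iHep-1. Probes of a gene share the RNA of their arrays and are not replicates.

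**Figure D3:**
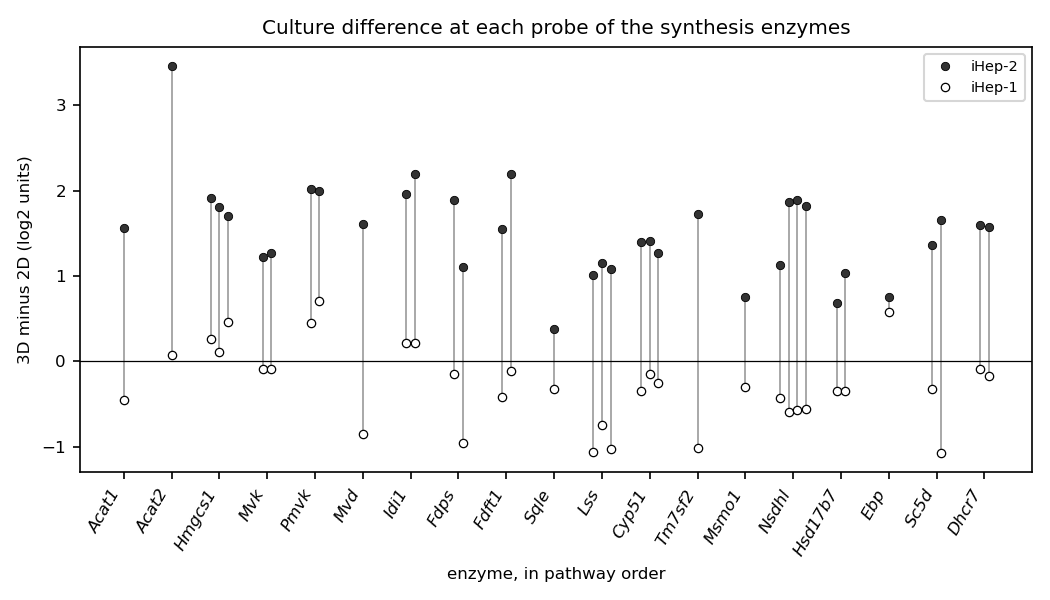
Culture difference, 3D minus 2D in log2 units, at each of the 36 probes of the 19 synthesis enzymes, in pathway order; filled points are iHep-2, open points iHep-1, and a line joins the points of a probe. All 36 filled points are above 0, and 9 open points are. The Fdft1 probe not used for the gene was not well above background in 2D iHep-2.

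Among the sterol sensors the levels of Insig1, Scap and Insig2 were lowest in 2D iHep-2, as those of the enzymes were. Insig1 was so by the widest margin, and the probe used for Srebf2 was not. Insig1, which holds SCAP in the endoplasmic reticulum and is itself a known target of SREBP2, had levels of 0.62 in 3D iHep-2 and 0.98 in 3D iHep-1, against -1.43 in 2D iHep-2 and 1.44 in 2D iHep-1. Its unscaled signals were 613 in 3D iHep-2 and 1173 in 3D iHep-1, against 228 in 2D iHep-2 and 1419 in 2D iHep-1. The gap between the experiments in 2D, -2.87 log2 units, was the widest of the 31 genes in that culture, and the 2 cultures overlapped. Srebf2, which encodes SREBP2, had levels of 4.72 in 3D iHep-2 and 5.30 in 3D iHep-1, against 4.86 in 2D iHep-2 and 5.12 in 2D iHep-1. At this probe the 4 arrays lay within 0.58 log2 units, and the culture difference was -0.14 in iHep-2 and 0.18 in iHep-1. The other 3 Srebf2 probes had culture differences of -0.09, 0.15 and 0.33 in iHep-2 and, in the same order, of 0.02, -0.19 and 0.13 in iHep-1, and those with 0.15 and 0.33 were lowest in 2D iHep-2, so the order of the arrays depended on the probe.

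Scap, which escorts SREBP2, had levels of 6.12 in 3D iHep-2 and 5.62 in 3D iHep-1, against 5.30 in 2D iHep-2 and 5.96 in 2D iHep-1. Insig2, the isoform of Insig1 that is known to answer less to SREBP2, had levels of 2.78 in 3D iHep-2 and 3.12 in 3D iHep-1, against 2.68 in 2D iHep-2 and 3.01 in 2D iHep-1. Its culture difference was 0.10 in iHep-2 and 0.12 in iHep-1. Its 4 arrays differed more by experiment than by culture, as iHep-2 was lower in both cultures.

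The 6 genes of uptake and transport were mixed. Stard4, a soluble sterol carrier, had the pattern of the enzymes, with 1.52 in 3D iHep-2 and 1.74 in 3D iHep-1, against 0.64 in 2D iHep-2 and 2.36 in 2D iHep-1. Scarb1, the receptor that takes cholesteryl esters from high-density lipoprotein, had 1.27 in 3D iHep-2 and 1.35 in 3D iHep-1, against 0.66 in 2D iHep-2 and 1.11 in 2D iHep-1. Both 3D arrays of Scarb1 were above both 2D arrays, with a gap of 0.61 for iHep-2 and of 0.24 for iHep-1, and the mean difference of 0.43 ± 0.27 (SE) did not pass the test.

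Npc1 and Npc2 hand cholesterol out of the lysosome together, and their values ran in opposite directions between the experiments. Npc1 had levels of -1.03 in 3D iHep-2 and -0.09 in 3D iHep-1, against -1.22 in 2D iHep-2 and -0.19 in 2D iHep-1. Npc2 had levels of 4.43 in 3D iHep-2 and 3.21 in 3D iHep-1, against 4.80 in 2D iHep-2 and 3.25 in 2D iHep-1. In both cultures Npc1 was lower and Npc2 higher in iHep-2, and the culture differences within an experiment were 0.19 and 0.10 for Npc1 in iHep-2 and iHep-1, and -0.37 and -0.04 for Npc2 in iHep-2 and iHep-1.

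Lipa, the lysosomal lipase that frees cholesterol from its esters, was lower in 3D in both experiments, with 1.1 in 3D iHep-2 and 1.50 in 3D iHep-1, against 1.59 in 2D iHep-2 and 2.40 in 2D iHep-1. The difference of -0.69 ± 0.39 (SE) did not pass the test (limma, adjusted p = 0.718). Npc1l1, the sterol importer targeted by ezetimibe, had unscaled signals of 63.3 in 3D iHep-2 and 12.3 in 3D iHep-1, against 38.2 in 2D iHep-2 and 11.2 in 2D iHep-1. It was higher in iHep-2 in both cultures. Its levels in iHep-1 were -5.60 in 3D and -5.54 in 2D. These lay near the dimmest signals well above background on those arrays, -6.06 in 3D and -5.98 in 2D.

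The storage genes Soat1 and Soat2 encode the enzymes that esterify cholesterol, of which Soat2 is the form of hepatocytes and enterocytes. Soat1 was lower in 3D in both experiments, with levels of 1.02 in 3D iHep-2 and 0.46 in 3D iHep-1, against 2.25 in 2D iHep-2 and 1.16 in 2D iHep-1. Its highest array was 2D iHep-2, where the synthesis enzymes were lowest. The mean difference was -0.96 ± 0.50 (SE), with an adjusted p of 0.704 in limma and of 0.355 with the experiment as a block, the smallest adjusted p of any member over the alternatives run. Soat2 had levels of 2.26 in 3D iHep-2 and -1.85 in 3D iHep-1, against 1.67 in 2D iHep-2 and -0.17 in 2D iHep-1. Its unscaled signals were 1907 in 3D iHep-2 and 165 in 3D iHep-1, against 1961 in 2D iHep-2 and 466 in 2D iHep-1, so it separated the experiments and not the cultures.

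The comparison of 3D with 2D culture over both experiments asked whether members differed by more than the spread between the arrays of a culture. None of the 31 passed the test in limma (two-sided, Benjamini-Hochberg over all genes), and 0% of the 16458 genes did, with a smallest adjusted p of 0.496. With the experiment as a block, 0 members and 0% of genes passed. Before adjustment, p was under 0.05 for 1 member, Pmvk, against 7.03% of all genes, and with the block for 2 members, Pmvk and Soat1, against 13.3% of all genes. Of the members, 8 were higher in 3D in both experiments (33.2% of all genes), 3 were lower in both (33%), 19 were higher in iHep-2 and lower in iHep-1 (19.2%), and 1, Srebf2, was higher in iHep-1 and lower in iHep-2 (14.6%).

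No member was at least 2-fold higher in both experiments (4.26% of all genes) or at least 2-fold lower in both (2.13%). In iHep-2, 18 members were at least 2-fold higher in 3D, against 12.7% of all genes, and in iHep-1 none was, against 7.81%. In 22 members the difference in iHep-2 exceeded that in iHep-1 by at least 1 log2 unit, against 10.1% of all genes. Both 3D arrays were above both 2D arrays in 6 members, Acat2, Hmgcs1, Pmvk, Idi1, Ebp and Scarb1, against 19.9% of all genes, and below them in 2, Lipa and Soat1, against 21.5%. The members' median of 3D minus 2D was 1.27 in iHep-2 and -0.30 in iHep-1, against 0.04 and -0.02 over all genes in iHep-2 and iHep-1. The median over both experiments, 0.43, was -0.11 without the array of 2D iHep-2, where the mean difference of 20 members changed sign, and -0.67 with spike-in scaling, where that of 25 members did. With spike-in scaling the mean differences that kept their sign were those of Acat2 and Pmvk, higher in 3D, and of Npc2, Lipa, Soat1 and Soat2, lower in 3D.

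**Figure D4:**
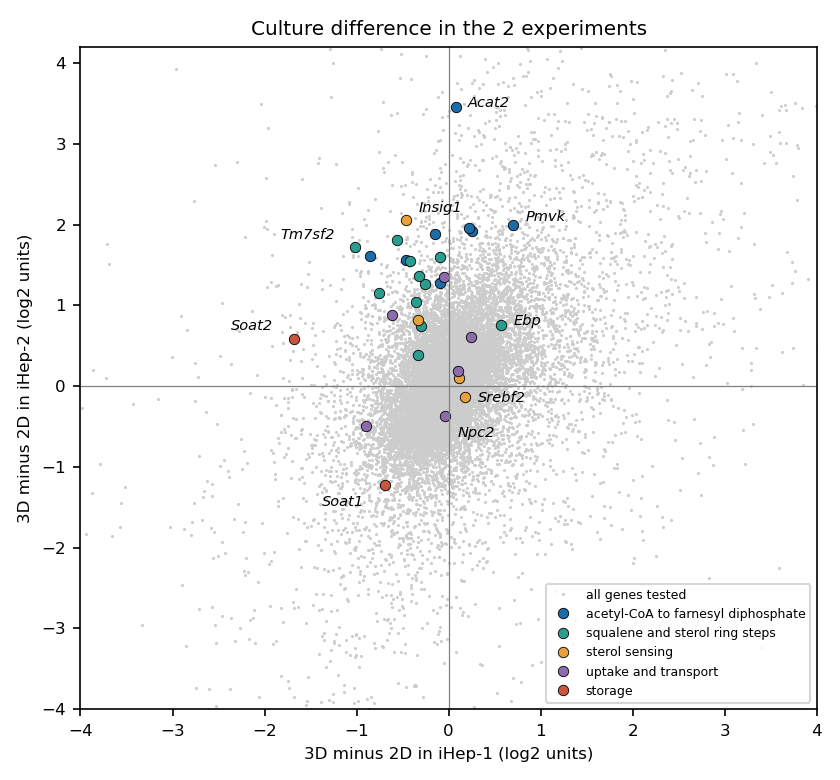
Culture difference, 3D minus 2D in log2 units, in iHep-1 (horizontal axis) and iHep-2 (vertical axis); grey dots are all genes tested, of which 333 lie outside the frame, and coloured points are the 31 members by role. Of the members, 19 lie at upper left, where the difference is above 0 for iHep-2 and below 0 for iHep-1, and none lies beyond 1 unit on both axes with the same sign.

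The comparison of iHep-2 with iHep-1, with culture in the model, asked whether the members' levels differed by experiment in both cultures alike. No member passed (limma), against 303 genes, or 1.84%, of all genes tested. Before adjustment p was under 0.05 for 5 of the 31, none of them a synthesis enzyme, against 17.8% of all genes, so the members' share was near that of all genes. Of the 5, Npc2 was 1.38 ± 0.24 (SE) log2 units higher in iHep-2 (adjusted p = 0.116 in limma), Npc1l1 2.24 ± 0.45 higher (adjusted p = 0.140 in limma), Soat2 2.97 ± 0.66 higher (adjusted p = 0.165 in limma) and Soat1 0.83 ± 0.27 higher (adjusted p = 0.272 in limma). Npc1 was lower by a mean difference of -0.99 ± 0.22 (adjusted p = 0.167 in limma). Each of the 5 had the same sign in both cultures, which follows largely from picking them by p in this fit. The Npc1l1 signal in iHep-1 lay near the dimmest well above background.

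Neighbouring pathways were read from lists of other genes, with values scaled to the 75th percentile as before. Of all genes tested, 33.2% were higher and 33% lower in 3D in both experiments. Of 11 genes tested of nonsterol isoprenoids and prenylation, the branch that also draws on farnesyl diphosphate, 2 were higher and 6 lower in 3D in both experiments, and the medians were -0.30 in iHep-2 and -0.25 in iHep-1. Ggps1, which makes geranylgeranyl diphosphate, had differences of -0.70 in iHep-2 and -0.63 in iHep-1, Rabggtb of -0.32 and -0.45 in iHep-2 and iHep-1, and Pggt1b of -0.86 and -0.53 in iHep-2 and iHep-1. In none of these 11 genes did the difference in iHep-2 exceed that in iHep-1 by 1 log2 unit or more, against 10.1% of all genes. Of 12 genes that process SREBP or degrade sterol enzymes, 4 were higher and 5 lower in both, with medians of -0.07 in iHep-2 and -0.08 in iHep-1. Mbtps1, the site-1 protease of SREBP, had -0.83 in iHep-2 and -0.86 in iHep-1, Faf2 -0.58 and -0.51 in iHep-2 and iHep-1, and Pgrmc1 0.73 and 0.35 in iHep-2 and iHep-1.

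Of 16 genes of intracellular sterol transfer and ester hydrolysis, 4 were higher and 9 lower in both, with medians of -0.23 in iHep-2 and -0.08 in iHep-1; Osbpl10 had 0.44 in iHep-2 and 2.10 in iHep-1, Osbp 0.58 and 0.28 in iHep-2 and iHep-1, and Nceh1 -1.57 and -0.11 in iHep-2 and iHep-1. The 7 genes of LXR and sterol efflux had 5 higher in both and 0 lower in both, with medians of 1.47 in iHep-2 and 0.36 in iHep-1. Nr1h3, the sterol-sensing receptor LXR alpha, had 1.47 in iHep-2 and 0.65 in iHep-1, Lpcat3 1.19 and 0.36 in iHep-2 and iHep-1, and the efflux pump Abca1 0.43 and 0.48 in iHep-2 and iHep-1. Fatty acid synthesis, whose genes are controlled by the related factor SREBP1, had 9 of 13 higher in both and 1 lower in both. The medians were 0.93 in iHep-2 and 0.24 in iHep-1. The lowest of the 4 levels was that of 2D iHep-2 in 8 of these 13, Acacb among them, against 30.1% of all genes. Of the 2 levels in 2D, that of iHep-2 was the smaller in 11 of the 13, against 53.8% of all genes. On the other lists, 2D iHep-2 was lowest in 0 of 11 isoprenoid and prenylation genes and 3 of 12 that process SREBP or degrade sterol enzymes. It was lowest in 3 of 16 of sterol transfer and 3 of 7 of LXR and efflux. Scd1, the stearoyl-CoA desaturase, had 3.28 in iHep-2 and 1.87 in iHep-1, Acacb 3.00 in iHep-1, and Srebf1 0.91 and 1.13 in iHep-2 and iHep-1. Acacb was not well above background in 2D iHep-2, and no difference is given for it there. None of these genes passed the test of 3D against 2D (limma, adjusted p of 0.683 to 0.793).

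The labelled cell type was read from its markers. All 9 measured hepatocyte markers of 10 listed, Alb, Ttr and Hnf4a among them, were well above background on all 4 arrays. Their summed level, as log2 units over the 75th percentile, was 11.5 in 3D iHep-2 and 10.8 in 3D iHep-1, against 10.5 in 2D iHep-2 and 10.9 in 2D iHep-1, and 2D iHep-2 was thus lowest here too. By gene, 7 of the 9 were lowest in 2D iHep-2, and their median of 3D minus 2D was 1.43 in iHep-2 and -0.15 in iHep-1, the signs that the enzymes had. All 8 markers of cycling cells had a probe, and their summed level was 0.52 in 3D iHep-2 and 1.27 in 3D iHep-1, against 4.33 in 2D iHep-2 and 2.76 in 2D iHep-1. The sum was highest on the array where the enzymes were lowest, with 6 of 8 well above background in 3D iHep-2 and 8 of 8 on each of the other 3 arrays. By gene, 7 of the 8 were lower in 3D in both experiments. Bub1 was the exception, with -0.42 in 3D iHep-2 and -1.21 in 3D iHep-1, against -1.04 in 2D iHep-2 and -0.55 in 2D iHep-1. Fibroblast markers, whose sum was nearly all Pdgfra (2.91 in 3D iHep-2 and 2.80 in 3D iHep-1, against 2.25 in 2D iHep-2 and 2.15 in 2D iHep-1), had summed levels of 2.93 in 3D iHep-2 and 2.93 in 3D iHep-1, against 2.31 in 2D iHep-2 and 2.36 in 2D iHep-1, with 2 of 10 well above background in 3D iHep-2, 6 in 3D iHep-1 and 4 on each 2D array. The biliary and progenitor markers, all 5 well above background on every array, had summed levels of 4.91 in 3D iHep-2 and 4.66 in 3D iHep-1, against 5.55 in 2D iHep-2 and 4.0 in 2D iHep-1. Of 4 macrophage and blood markers 2 were well above background on each array, and Ptprc, their common marker, was on none; of 3 endothelial markers 0 were in either 3D array, 2 in 2D iHep-2 and 1 in 2D iHep-1. The part of these cell types or of cycling in the members' values was not tested.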

How the data were processed

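RNA of 4 samples, 2 of 3D and 2 of 2D culture, was isolated with an RNeasy Micro kit, amplified and labelled with Cy3, and hybridised to 1-colour arrays of Agilent design 014868, all on 1 slide with 1 scan time, per the labels' protocols and the file headers. The scanner files as deposited give 1 linear intensity per spot, from Agilent Feature Extraction, version 10.7.1.1 per the file headers and 9.5.1.1 per the submitters' processing notes, with probe positions on mm9. The authors' series table, also of deposited intensity values, had equal medians for both arrays of an experiment (22.6 for iHep-2, 26.3 for iHep-1) and kept the probe order of the processed signal (Spearman 0.999985 to 0.999991 across probes of an array); the steps behind it are not given in the sources used here.

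Values are log2 of the processed signal minus log2 of each array's 75th percentile. Control spots and 72 to 85 outlier spots per array were left out, no spot was saturated, and spots of a probe were averaged. Probes were kept when 2 or more of the 4 arrays had them well above background, and the one with the highest mean stood for its gene, which gave 16458 genes. Of 41174 probes, 24797 were named by accession and 7843 by symbol through a RefSeq table, and 8475 kept the name in the files; of the members' 59 probes, 47 had an accession in that table. Groups were compared with limma 3.58.1 in R 4.3.3 (lmFit, eBayes, two-sided, Benjamini-Hochberg over all genes, threshold 0.05). A trial of the fit of 3D against 2D on simulated arrays used independent noise and no difference between experiments. The real arrays are paired by experiment, so that trial does not show how the fit behaves on them. The fit of 3D against 2D without a block had 2 residual degrees of freedom. Fits with both culture and experiment, as for iHep-2 against iHep-1, had fewer. Replicate number 1 is iHep-1 and 2 is iHep-2 by title, and the deviations from the group means went together in arrays of the same number (r = 0.66 across genes), so the numbers pair the arrays; the experiment as a block was an alternative. Nothing in the labels says more on whether arrays of a group came from separate animals, and p-values measure the spread between these samples. Other alternatives were normexp background correction (offset 50), quantile and spike-in scaling, the authors' table, other filters, all probes averaged, another variance prior and each array left out. All members are named; of 5 lists of neighbouring pathways, up to 3 genes with the smallest p for 3D against 2D are. The members, lists and motifs were chosen with earlier results of these data known, so no list was given a p.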

Additional observations from a re-analysis of the deposited data

Results flagged for a closer look

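The culture difference, 3D minus 2D, pointed one way in iHep-2 and the other way in iHep-1 for the members' median and for 20 members. The gap of iHep-2 to iHep-1 was not tested, as each culture of each experiment has 1 array. The median was 1.27 in iHep-2 and -0.30 in iHep-1, 1.57 log2 units apart. For the synthesis enzymes, sterol sensors and Stard4 with a difference above 0 in iHep-2 and below 0 in iHep-1, the difference in iHep-2 minus that in iHep-1 was, in log2 units, 2.02 for Acat1, 1.36 for Mvk, 2.46 for Mvd, 2.03 for Fdps, 1.97 for Fdft1, 0.71 for Sqle, 1.91 for Lss, 1.53 for Cyp51, 2.74 for Tm7sf2, 1.05 for Msmo1, 2.37 for Nsdhl, 1.39 for Hsd17b7, 1.69 for Sc5d, 1.69 for Dhcr7, 1.16 for Scap, 2.51 for Insig1 and 1.50 for Stard4. It was 1.41 for Npc1l1 and 2.27 for Soat2, whose levels also separated iHep-2 from iHep-1 in both cultures. For Srebf2, which was lower in 3D in iHep-2 and higher in iHep-1, it was -0.32, and its other probes differed in sign. Of all 16458 genes, 3160 had a difference above 0 in iHep-2 and below 0 in iHep-1, and 2411 had the reverse.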

How the results depend on the processing

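No member passed the adjusted threshold for 3D against 2D under any alternative run (smallest adjusted p = 0.355, limma with the replicate block). With the replicate block 0 genes were called. The fit of 4 arrays without the block left 2 residual degrees of freedom, and fits with both culture and experiment left fewer. Of 403 recomputed culture differences of members, 61 changed sign, 25 of them with spike-in scaling and 20 without 2D iHep-2. The 403 include settings that left every member's difference as it was: the replicate block, the other variance prior, the filter on all 4 arrays and no filter on dim probes. Spike-in scaling moved the mean differences of all genes by the same amount. The cause of the other changes was not tested. With all 4 arrays kept, genes called for 3D against 2D numbered 0 in each setting, except 291 with spike-in scaling. In that scaling the smallest adjusted p was 2.4e-24 (limma). The spread between arrays then holds an offset shared by all genes, so p-values in that scaling are not read as results for single genes. For iHep-2 against iHep-1 the 303 genes called became 692 with normexp background correction, 906 with spike-in scaling, 487 with no filter on dim probes, 54 without the culture term and, with fewer genes tested, 143 when all 4 arrays had to be well above background. The 1051 genes at least 2-fold apart in one direction in both experiments became 459 with normexp, 3513 with spike-in scaling and 661 with the filter on all 4 arrays. The members' median over both experiments, 0.43, ranged from -0.11 without 2D iHep-2 to 0.99 without 2D iHep-1 when a replicate was left out, and was -0.67 with spike-in scaling, where the median in iHep-1 was -1.97 against -0.30. Srebf2 was -0.0034 with normexp, -0.032 with quantile normalization and -0.043 in the authors' table, and Sqle -0.026 with quantile normalization and -0.032 in the authors' table. With spike-in scaling the all-gene median of the mean culture difference was -1.08, against 0.02 in the main scaling. The mean culture difference over both experiments was then -0.55 for Acat1, -0.011 for Hmgcs1, -0.51 for Mvk, -0.72 for Mvd, -0.0084 for Idi1, -0.23 for Fdps, -0.53 for Fdft1, -1.07 for Sqle, -0.90 for Lss, -0.59 for Cyp51, -0.75 for Tm7sf2, -0.87 for Msmo1, -0.47 for Nsdhl, -0.76 for Hsd17b7, -0.43 for Ebp, -0.58 for Sc5d, -0.34 for Dhcr7, -1.08 for Srebf2, -0.86 for Scap, -0.30 for Insig1, -0.99 for Insig2, -0.97 for Stard4, -0.67 for Scarb1, -0.95 for Npc1 and -0.45 for Npc1l1. With a replicate left out, the ranges of the members that changed sign were, in log2 units, Acat1 -0.041 to 1.14, Mvk -0.072 to 1.25, Mvd -0.50 to 1.25, Fdft1 -0.21 to 1.35, Sqle -0.23 to 0.29, Lss -0.37 to 0.77, Cyp51 -0.14 to 1.16, Tm7sf2 -0.45 to 1.16, Msmo1 -0.32 to 0.77, Nsdhl -0.30 to 1.56, Hsd17b7 -0.59 to 1.28, Sc5d -0.54 to 1.58, Srebf2 -0.27 to 0.31, Scap -0.085 to 0.57, Insig1 -0.64 to 2.24, Insig2 -0.066 to 0.28, Stard4 -0.73 to 0.99, Npc1 -0.37 to 0.66, Npc2 -0.98 to 0.57, Npc1l1 -0.82 to 2.12 and Soat2 -2.60 to 1.51. In all 19 enzymes 2D iHep-2 was lower than 2D iHep-1 under all 7 alternatives of background, scaling, values, filter and probe. The 2 of filter used the same probes and values for the enzymes, so they could not differ from the main result.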
